A study of Mus musculus with 17 samples.

Results

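The 9 genes described here make, place or feed the machinery that clears and recycles acetylcholine: the cholinesterases Ache and Bche, their anchoring proteins Colq and Prima1, the vesicular acetylcholine transporter Slc18a3, the neuronal choline transporter Slc5a7 and the choline transporter-like genes Slc44a1, Slc44a2 and Slc44a4. They were chosen by symbol, because the drug given to the mice inhibits cholinesterases, and are 9 of the 23719 entries of a table of raw RNA-seq counts from mouse colon. Each of the 9 passed the filter on low counts, as did 14146 entries in all.

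Male C57BL/6 mice between 32 and 34 weeks of age drank either plain water (Control, n = 9) or water with pyridostigmine bromide (PB) at 2 mg/kg (called GWI after Gulf War illness, n = 8). PB is a reversible cholinesterase inhibitor. Exposure lasted 7 days. One description gives 21 days of recovery before the colon was taken, and another keeps the mice until 30 days, so the end point is known only to that margin. The libraries came from pieces of colon whose layers are not named, and no strain difference, transgene or batch was labelled. Total counts ran from 16293537 in GWI replicate 5 to 20741212 in Control replicate 6. Control replicate 9 stood apart from the other libraries, with 23.1% of its counts in its 10 most abundant genes and a scaling factor of 0.799.

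Acetylcholine is the main excitatory transmitter of the enteric nervous system. It is made from choline by choline acetyltransferase, loaded into vesicles by the product of Slc18a3, released onto receptors of neurons, muscle and epithelium, and split by acetylcholinesterase, after which Slc5a7 returns the choline to the nerve ending. Acetylcholinesterase is held in place by a collagen tail, ColQ, or by the membrane anchor PRiMA, and the choline transporter-like proteins bring choline into many cell types for membrane lipids.

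With edgeR's quasi-likelihood test and Benjamini-Hochberg adjustment over all 14146 genes, 1 of the 9 genes was called at an adjusted p under 0.05, and it was higher in GWI colons. That gene was Slc44a4. Among all tested genes 26.8% were called, 13.4% higher and 13.5% lower. Before adjustment the same 1 gene of 9 had a p under 0.05, as did 5851 of the 14146 tested genes. Under a rule that asks for a change beyond 1 on the log2 scale and an edgeR p under 0.05 before adjustment, 0 of 9 genes were called, against 2.42% of tested genes. The ranges of the 2 groups overlapped for every one of the 9 genes, whereas 2.35% of tested genes had groups that did not overlap. The estimate was positive for 4 genes and negative for 5, although 2 of the positive ones, Colq and Slc44a2, turned negative when libraries were scaled by upper quartiles (−0.035 and −0.024). These 9 estimates had a median of −0.22 beside −0.056 over all tested genes. In bulk colon, fewer cells of a type and less RNA per cell cannot be told apart, which holds for each value below.

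**Figure D1:**
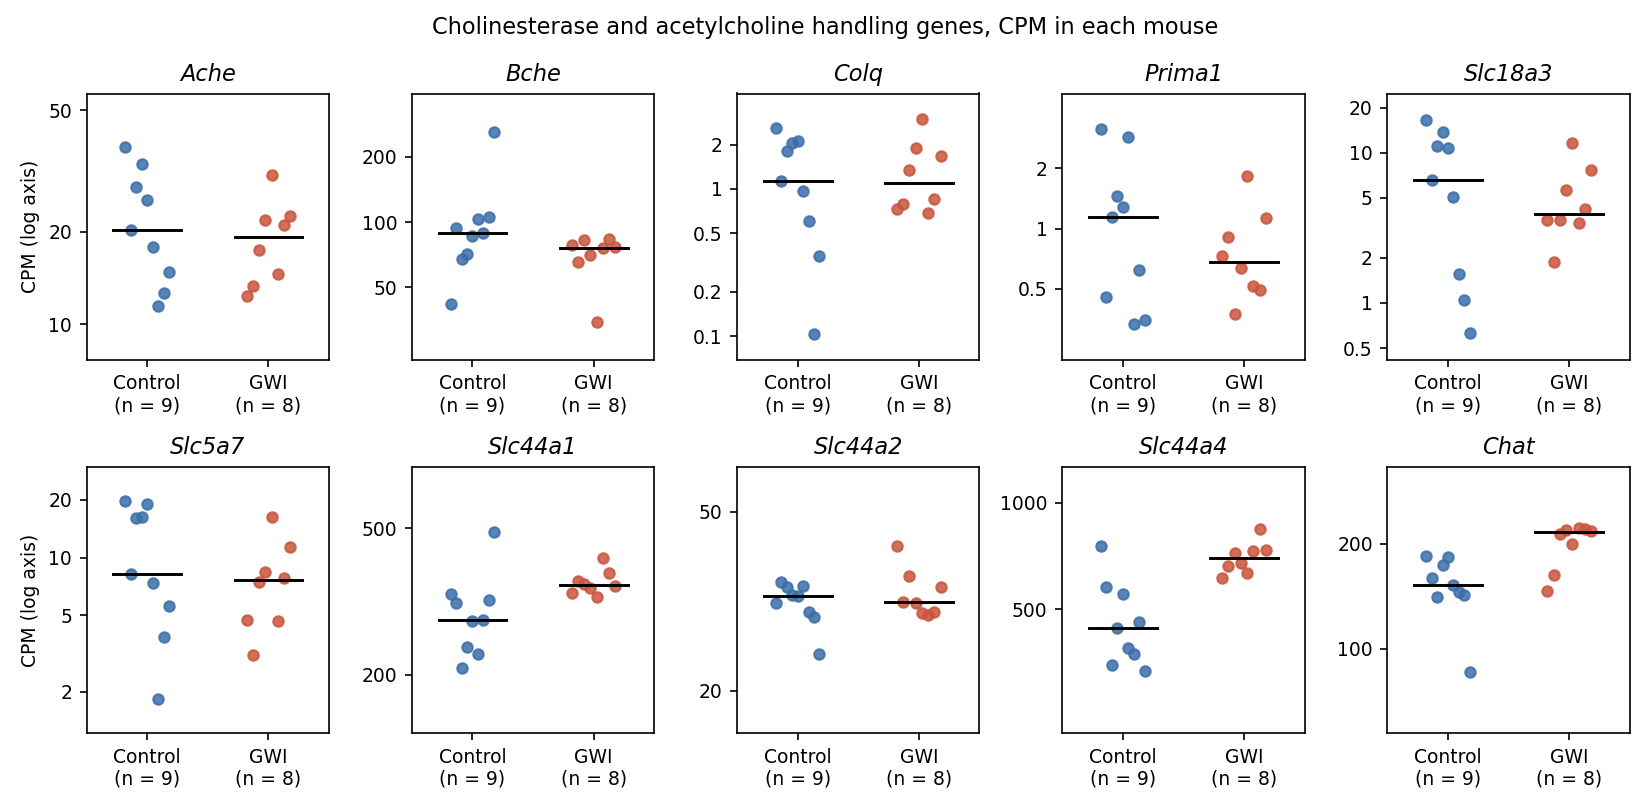
Level as CPM (a gene's counts scaled to a common library size) of the 9 genes and of Chat in each mouse, on log axes that differ between panels; each point is 1 mouse and the bar is the group median. Slc44a4 ran from 336 to 755 CPM in control colons and from 612 to 841 CPM in GWI colons, and Slc18a3 from 0.627 to 16.6 CPM among control colons alone.

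Ache encodes acetylcholinesterase, which splits acetylcholine at synapses (GRCm38 chr5:137287519-137294466, plus strand). In control colons its level was 11.5 CPM at the lowest, 20.2 CPM at the median and 37.8 CPM at the highest. In GWI colons these were 12.4, 19.2 and 30.6 CPM. All 8 GWI colons lay within the control range, and the spread among control colons, 3.29-fold from lowest to highest, was wider than any shift between the groups. The means were 22.4 ± 9.30 CPM (SD, n = 9) and 19.2 ± 6.05 CPM (SD, n = 8). A log2 fold change of −0.22 ± 0.24 (SE; edgeR adjusted p = 0.504) had a 95% confidence interval from −0.73 to 0.29. Without Control replicate 1 it was −0.087 (edgeR adjusted p = 0.788). Limma-voom with sample weights gave −0.46 and called Ache lower (adjusted p = 0.0359), in a fit that called 8091 of all 14146 tested genes.

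Bche encodes butyrylcholinesterase, a broader esterase found in plasma, glia and other tissues (chr3:73635808-73708415, minus strand). Control colons held 41.7 CPM at the lowest, 88.9 CPM at the median and 262 CPM at the highest. GWI colons held 34.7, 76.2 and 83.4 CPM. None of the 8 GWI colons was above the control median, and 6 control colons were above every GWI colon. The highest control value came from Control replicate 9, and the next was 106 CPM. On the log2 scale GWI differed from control by −0.53 ± 0.27 (SE), with an interval from −1.10 to 0.043, and this did not pass the threshold (edgeR adjusted p = 0.151). Without Control replicate 9 it was −0.21 (adjusted p = 0.405). Over the alternative analyses, the log2 fold change of Bche ran from −0.94 to −0.17 and its adjusted p from 0.00289 to 0.717.

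Colq, the collagen tail of acetylcholinesterase in the basal lamina, was the lowest of the 9 genes per kilobase of exon (chr14:31523082-31591343, minus strand). It had 2 to 43 counts per library among controls and 12 to 47 among GWI colons, which limits the precision of each value. The level in control colons was 0.104 CPM at the lowest, 1.14 CPM at the median and 2.59 CPM at the highest, and in GWI colons 0.688, 1.10 and 2.96 CPM. The medians were close, and 3 control colons lay below every GWI colon while 1 GWI colon lay above every control. Its log2 fold change was 0.060 ± 0.45 (SE; edgeR adjusted p = 0.934), with an interval from −0.89 to 1.01. Of its exon bases, 5.23% are shared with Gm49387 on the same strand, so reads there cannot be assigned to one gene.

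Prima1, the proline-rich membrane anchor that tethers acetylcholinesterase on neurons, was as sparse, with 5 to 65 counts among controls and 7 to 29 among GWI colons (chr12:103196908-103242150, minus strand). Levels in control colons were 0.331 CPM at the lowest, 1.14 CPM at the median and 3.16 CPM at the highest. GWI colons gave 0.376, 0.680 and 1.83 CPM. Only 1 of the 8 GWI colons exceeded the control median, yet 2 controls lay below every GWI colon. For Prima1 the log2 fold change was −0.66 ± 0.46 (SE), with an interval from −1.62 to 0.30 and an edgeR adjusted p of 0.283. Limma-voom with sample weights gave −0.80 and called Prima1 lower (adjusted p = 0.0441), in the fit that called 8091 of all 14146 tested genes.

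Slc18a3 encodes VAChT, which fills synaptic vesicles with acetylcholine, and is a gene of 1 exon that lies inside Chat on the same strand without sharing its exon bases (chr14:32462438-32464850, minus strand). Reads from unspliced Chat RNA across that exon cannot be told apart from Slc18a3 reads. Control colons had 0.627 CPM at the lowest, 6.54 CPM at the median and 16.6 CPM at the highest. GWI colons had 1.87, 3.91 and 11.6 CPM. The controls were split widely: Control replicates 7, 8 and 9 (1.55, 1.04 and 0.627 CPM) lay below every GWI colon, and Control replicates 1 and 4 (16.6 and 13.8 CPM) above every one. Highest and lowest control differed 26.4-fold, against 6.21-fold among GWI colons. The estimate, a log2 fold change of −0.52 ± 0.53 (SE, interval −1.64 to 0.60, edgeR adjusted p = 0.474), did not pass the threshold. It ran from −0.80 to −0.29 with 1 mouse left out and from −1.06 to 1.09 over all alternatives. Limma-voom with sample weights, which called 8091 of all 14146 tested genes, called Slc18a3 lower (−1.06, adjusted p = 0.0328). With the mean of enteric neuron markers as a covariate, edgeR called it higher (0.44, adjusted p = 0.0259).

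Slc5a7 encodes CHT1, the high-affinity transporter that takes choline back into cholinergic endings (chr17:54273590-54299034, minus strand). Its level in control colons was 1.82 CPM at the lowest, 8.24 CPM at the median and 19.8 CPM at the highest. In GWI colons it was 3.11, 7.66 and 16.3 CPM. The order of mice resembled that of Slc18a3, with Control replicate 1 highest among controls and GWI replicates 5 and 2 at the ends of the other group. The lowest control differed, being Control replicate 7 for Slc5a7 and Control replicate 9 for Slc18a3. A difference of −0.45 ± 0.42 (SE) in log2 did not pass the threshold (interval −1.32 to 0.42; edgeR adjusted p = 0.425). Limma-voom with sample weights gave −0.98 and called Slc5a7 lower (adjusted p = 0.0277), in the fit that called 8091 of all 14146 tested genes.

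Slc44a1 encodes CTL1, a choline transporter of plasma and mitochondrial membranes found in most tissues (chr4:53440413-53622478, plus strand). Control colons held 208 CPM at the lowest, 282 CPM at the median and 490 CPM at the highest. GWI colons held 326, 351 and 415 CPM. All 8 GWI colons were above the control median, and 7 of the 9 controls were below every GWI colon, but Control replicate 9 was above all of them. The log2 fold change was 0.26 ± 0.14 (SE; interval −0.029 to 0.55), which did not pass the threshold (edgeR adjusted p = 0.161). Without Control replicate 9 it was 0.38 and passed (edgeR adjusted p = 0.0123, with a range from 0.000242 to 0.666 over all alternatives). That made 2 genes called of 9, beside 4493 of 14093 tested genes. The log2 fold change of Slc44a1 was 0.080 with the smooth muscle mean and 0.13 with the epithelium mean in the model.

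Slc44a2, a choline transporter-like protein best known as a neutrophil alloantigen in humans, varied least among control colons, 1.45-fold from lowest to highest (chr9:21320698-21355028, plus strand). Its range was 24.1 to 34.9 CPM with a median of 32.4 CPM in control colons, and 29.5 to 41.9 CPM with a median of 31.4 CPM in GWI colons. The groups overlapped, with 6 of the 8 GWI colons inside the control range. The log2 fold change was 0.070 ± 0.089 (SE; edgeR adjusted p = 0.570), and its interval from −0.12 to 0.26 was the narrowest among the 9 genes.

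Slc44a4, a member of the same family that carries thiamine pyrophosphate in colon epithelium and has been linked to choline uptake for acetylcholine made outside neurons, was higher in GWI colons (chr17:34914466-34930436, plus strand). Control colons held 336 CPM at the lowest, 443 CPM at the median and 755 CPM at the highest. GWI colons held 612, 700 and 841 CPM. Of the 9 control colons, 8 lay below every GWI colon, and the exception was Control replicate 1. Means were 471 ± 136 CPM (SD, n = 9) and 703 ± 72.6 CPM (SD, n = 8), a 1.49-fold difference (log2 fold change 0.58 ± 0.15 (SE), interval 0.27 to 0.89, edgeR adjusted p = 0.0102). Of 10 colon epithelium markers, 5 were called higher in GWI colons, beside 13.4% of all tested genes. The other 5 were not called, 3 of them with negative estimates, and 0 were lower. The median log2 fold change of the 10 markers was 0.39. Their summed level had a median of 32934 CPM in control and 37956 CPM in GWI colons. Car1, the most abundant, was not called (log2 fold change −0.061). When the mean of these markers was added to the model, an alternative chosen after seeing the data, Slc44a4 was no longer called (log2 fold change 0.30, adjusted p = 0.230; 0.000177 to 0.230 over all alternatives). Of all tested genes, 235 were called in that model. The part of epithelial content in the Slc44a4 difference was not tested further.

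Levels can be compared between genes only per length, here as CPM per kilobase of merged exons. In control colons Slc44a4 was highest, at 151 ± 43.8 CPM per kilobase (SD, n = 9), followed by Slc44a1 at 43.0 ± 12.0 and Bche at 15.2 ± 9.35. Ache stood at 4.84 ± 2.01, Slc44a2 at 3.62 ± 0.38, Slc18a3 at 3.09 ± 2.43 and Slc5a7 at 1.93 ± 1.22 CPM per kilobase. Prima1 (1.03 ± 0.85) and Colq (0.343 ± 0.230) were lowest. Slc44a4 exceeded Slc44a1, and Slc44a1 exceeded Bche, in each of the 9 control and 8 GWI colons. Bche exceeded Ache in 8 of 9 control colons and 7 of 8 GWI colons, so butyrylcholinesterase RNA was the more abundant of the 2 cholinesterase transcripts in most mice. Ache and Slc44a2 did not differ beyond their spread, Ache being above Slc44a2 in 6 of 9 control and 4 of 8 GWI colons. Slc44a2 was above Slc18a3 in 5 of 9 control colons and in 7 of 8 GWI colons (3.80 ± 0.49 against 2.15 ± 1.29 CPM per kilobase, SD, n = 8). The order of mean CPM per kilobase was the same in GWI colons, from 226 ± 23.3 for Slc44a4 to 0.359 ± 0.208 for Colq (SD, n = 8).

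Apart from the prior count added to each value, ratios within a mouse do not depend on how libraries are scaled. These ratios asked whether the enzymes, anchors and transporters shifted against each other. The log2 ratio of Ache to Bche was −2.12 ± 1.20 (SD, n = 9) in control and −1.89 ± 0.76 (SD, n = 8) in GWI colons, a difference of 0.23. For Colq to Ache the difference was 0.43, for Prima1 to Ache −0.19, for Slc18a3 to Chat −0.47 and for Slc5a7 to Slc18a3 −0.22. None of the 5 passed a two-sided exact permutation test over every assignment of the 17 mice to groups of 9 and 8 (lowest p = 0.172 for Colq to Ache, adjusted p = 0.652 for each of the 5), and 0 of 5 had an unadjusted p under 0.05.

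Within groups Ache, Colq, Slc18a3 and Slc5a7 varied together from mouse to mouse. After centring on the group mean, Ache and Slc5a7 had a Pearson r of 0.94 over 17 mice, Colq and Slc18a3 0.91, Ache and Slc18a3 0.89 and Slc18a3 and Slc5a7 0.86, given as descriptions. Bche ran the other way, with r = −0.76 to Slc18a3 and −0.65 to Ache. Slc44a4 was only loosely related to these genes (r = 0.46 to Slc18a3). Its closest relation among the 9 genes and Chat was to Chat, at 0.68.

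The same genes moved with enteric neuron markers. Against the mean of 12 such markers, Slc18a3 had r = 0.98 and rho = 0.97, Slc5a7 r = 0.95 and rho = 0.96, Ache r = 0.94 and rho = 0.96, and Colq r = 0.90 and rho = 0.94, each with a permutation p of 1e-05 for r and for rho, the smallest that the resamples can give (adjusted p = 9e-05 over 36 relations). Without the 2 mice farthest from the median, Control replicates 7 and 9, these r were 0.99, 0.97, 0.94 and 0.95. Bche was negatively related (r = −0.69, p = 0.00087, adjusted 0.00348; rho = −0.63, p = 0.00758, adjusted 0.0227; permutation test) and gave −0.69 without those mice. Prima1 followed the neuron list less closely (r = 0.73, rho = 0.76; permutation p = 0.00084 and 0.00057, adjusted 0.00348 and 0.00293), and this relation rests in part on the 2 mice, since r was 0.60 without them (adjusted p = 0.0546).

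Prima1 was closest to smooth muscle markers (r = 0.88, rho = 0.88; permutation p = 2e-05 for both, adjusted 0.000144), and r was 0.83 without Control replicates 6 and 9. The genes that moved with neuron markers were also related to this list, with r = 0.83 for Slc18a3, 0.77 for Colq, 0.68 for Ache and 0.62 for Slc5a7 (rho = 0.82, 0.75, 0.70 and 0.66; permutation p for r = 9e-05, 0.00034, 0.00283 and 0.00791, adjusted 0.00054, 0.00175, 0.00926 and 0.019), and 0.86, 0.86, 0.82 and 0.75 without those 2 mice, so these relations are not particular to the neuron list. Bche again ran opposite to this list (r = −0.72, rho = −0.62; permutation p = 0.00112 and 0.00952, adjusted 0.00403 and 0.0264). Slc44a4 followed colon epithelium markers (r = 0.64, rho = 0.58; permutation p = 0.00489 and 0.0166, adjusted 0.0135 and 0.0398), but without Control replicate 1 and GWI replicate 1 r was 0.54 with an adjusted p of 0.0965, so the relation rests in part on those mice. Within control colons r was 0.93 (n = 9) and within GWI colons 0.27 (n = 8), and this difference was not tested. Slc44a1 was negatively related to smooth muscle markers (r = −0.59, rho = −0.51; permutation p = 0.0112 and 0.0391, adjusted 0.0252 and 0.0741), which rests on the 2 farthest mice, since r was −0.23 without them. Over the neuron, smooth muscle and epithelium lists, 14 of 27 relations passed on r, and 11 did without the 2 farthest mice. No batch was labelled within which to repeat them, and what the short codes in the sample descriptions stand for is not given in the sources used here.

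**Figure D2:**
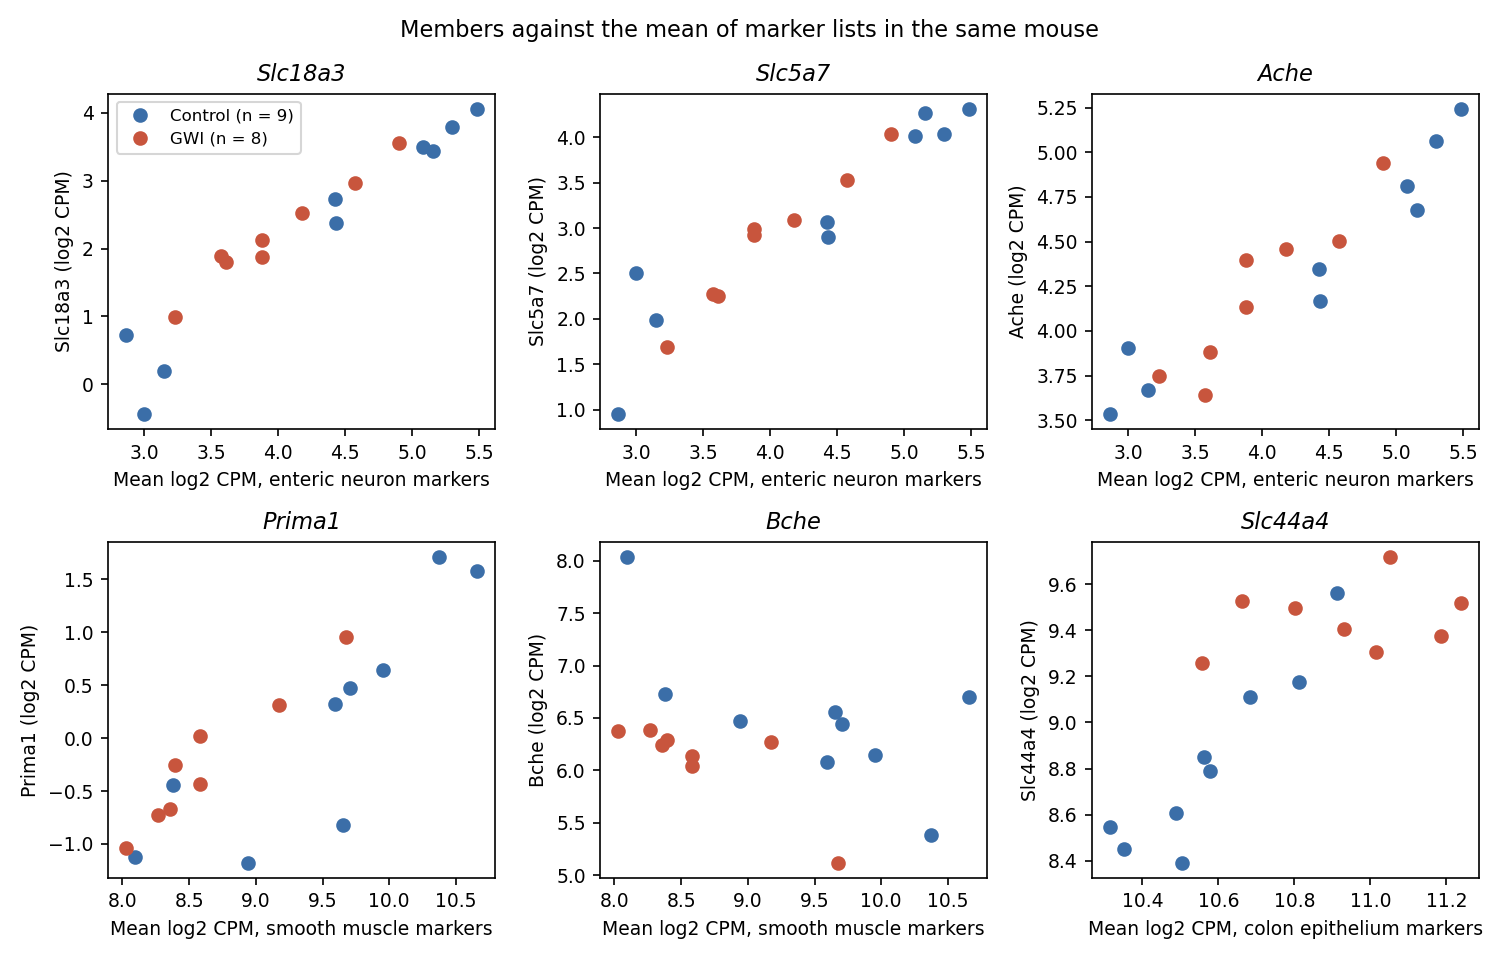
Level of 6 members in each mouse (log2 CPM, vertical) against the mean log2 CPM of a marker list in the same mouse (horizontal), control colons in blue and GWI colons in red. Slc18a3, Slc5a7 and Ache rise with enteric neuron markers in both groups (group-centred r = 0.98, 0.95 and 0.94 over 17 mice), Prima1 with smooth muscle markers (0.88), Bche falls against smooth muscle markers (−0.72) and Slc44a4 rises with colon epithelium markers (0.64).

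The marker lists gave these values beside the members. Of 12 enteric neuron markers 1 was called lower and 0 higher, beside 13.5% of all tested genes called lower, and each of the 12 estimates was negative (median log2 fold change −0.58; Nefl −0.88 ± 0.30 (SE), edgeR adjusted p = 0.0394). Of the exon bases of Nefl, the marker that was called, 32.8% are shared with Nefm on the opposite strand, where reads cannot be assigned without strand. The mean of the list was 4.32 ± 1.05 log2 CPM (SD, n = 9) in control and 3.98 ± 0.55 log2 CPM (SD, n = 8) in GWI colons, whose ranges overlapped. Summed, the level ran from 98.5 to 637 CPM in control colons and from 125 to 426 CPM in GWI colons, with Uchl1 the most abundant. Smooth muscle markers were called lower in 7 of 10 cases and higher in 0 (median −0.91; Myh11, the most abundant, −1.10 ± 0.38 (SE), edgeR adjusted p = 0.0407). Control replicates 7, 8 and 9 were the lowest of the controls for both lists, with mean neuron marker levels of 2.86, 3.15 and 3.00 log2 CPM against 5.49 in Control replicate 1.

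With the neuron or smooth muscle mean as a covariate in the edgeR model, the negative estimates of Slc18a3, Slc5a7 and Ache turned positive. For Slc18a3 the log2 fold change became 0.44 with the neuron list (adjusted p = 0.0259; 0.0259 to 0.698 over all alternatives) and 1.09 with the smooth muscle list (adjusted p = 0.0605). With limma-voom and sample weights, and no covariate, Slc18a3 was instead called lower (−1.06, adjusted p = 0.0328), so the 2 models gave calls in opposite directions. Ache became 0.041 and 0.26, and Slc5a7 0.082 and 0.33, none of these 4 called. Prima1 stayed negative with the neuron list (−0.21) and became 0.63 with the smooth muscle list, and Colq became 0.69 and 1.15 (adjusted p = 0.0258 and 0.0316; 0.0258 to 0.987 over all alternatives). Bche moved further down, to −0.62 and −0.94 (edgeR adjusted p = 0.0205 and 0.00289), but was −0.24 with the colon epithelium mean (adjusted p = 0.717). The neuron and smooth muscle models called 5548 and 5324 of all 14146 tested genes, and limma-voom with sample weights 8091. With the colon epithelium mean, Ache (−0.45), Prima1 (−0.96), Slc18a3 (−0.79) and Slc5a7 (−0.66) stayed negative and were not called. The directions of these genes between the groups therefore depended on which marker list was held constant. What part marker content had in each was not tested. Skeletal muscle, where ColQ tethers acetylcholinesterase at the motor endplate, was represented by 4 tested markers (median −0.10), of which Ckm was called lower (−1.06 ± 0.32 (SE), adjusted p = 0.0202) and the other 3 were not called. The other 6 markers were too low to test. Of these Myh4 had 0 counts in 10 of 17 mice but up to 76 in 1 mouse, and Atp2a1 had 2 to 55 counts with none at 0. Of 8 interstitial cell and fibroblast markers 2 were called lower, Dcn (−0.75 ± 0.20 (SE), adjusted p = 0.0119) and Kcnn3 (−0.89 ± 0.24 (SE), adjusted p = 0.0138), and of 7 tested leukocyte markers 1, Lyz2 (−0.64 ± 0.19 (SE), adjusted p = 0.0188). None of the 5 tested red blood cell markers was called by edgeR (0 at an unadjusted p under 0.05). Of 6 adipose markers 1 was called higher, Cidec (0.99 ± 0.33 (SE), adjusted p = 0.0365), and the median log2 fold change of that list was 1.04. Beside these counts, 13.4% of all tested genes were called higher and 13.5% lower. The part of these cell types in the members' values was not tested.

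**Figure D3:**
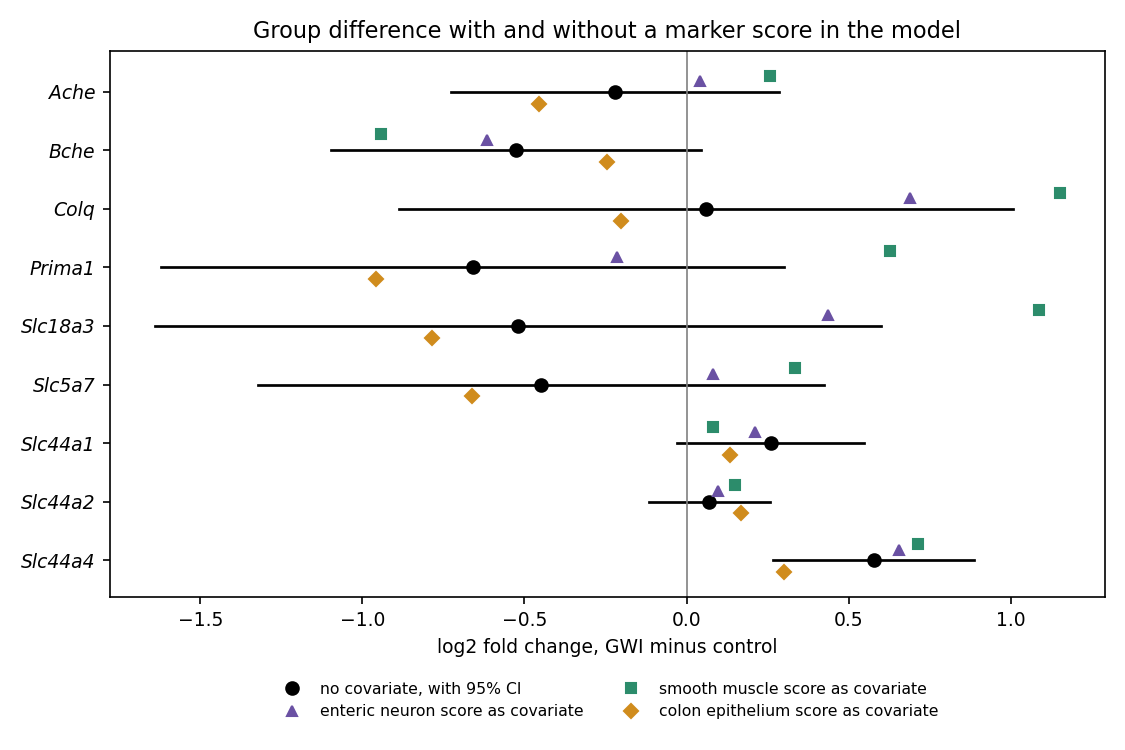
Log2 fold change of each member (GWI minus control, horizontal) without a covariate (black, with its 95% confidence interval) and with the mean of a marker list in the model (coloured symbols without intervals). Slc44a4 alone has a black interval that leaves out 0 (0.27 to 0.89), and Slc18a3 moves from −0.52 to 0.44 with the enteric neuron list and 1.09 with the smooth muscle list.

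Taking each member relative to a list within a mouse gave 27 comparisons, of which 2 passed the two-sided exact permutation test after adjustment and 10 before it. Relative to smooth muscle markers, Slc44a4 was 1.47 higher and Colq 1.11 higher in GWI colons on the log2 scale (adjusted p = 0.0150 for both by exact permutation). The list itself was lower in GWI colons, so both differences hold that fall as well. Relative to enteric neuron markers, Colq was 0.61 higher (exact permutation p = 0.00728, adjusted 0.0655), and Slc18a3, Slc5a7, Ache and Prima1 differed by 0.29, 0.076, 0.18 and −0.015. Bche, lower in the models with a covariate, differed by 0.46 relative to smooth muscle markers (exact permutation p = 0.457) and by −0.053 relative to neuron markers (p = 0.936), so the 2 ways of allowing for marker content gave different values for it. Relative to colon epithelium markers Slc44a4 was 0.27 higher (exact permutation p = 0.0325, adjusted 0.0926).

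The genes whose group-centred log2 CPM over 17 mice was most like that of a member, among 14145 others by Pearson r, were Dpp6, Kif1a and Prkar1b for Slc18a3 (0.99 each), Elavl4, Zcchc12 and Dnajc6 for Slc5a7 (0.98 each), and Pnma2, Grin1 and Kif5c for Ache (0.97 each). For Colq they were Cacnb1, Etv1 and Sprn (0.95, 0.95 and 0.94), and for Prima1 Synm, Cald1 and Gpr27 (0.94, 0.92 and 0.92). Bche was most like Ccny, Tcf12 and Mat2b (0.96, 0.95 and 0.93), Slc44a1 like Mtm1, Nat2 and Tm4sf20 (0.95, 0.95 and 0.94), and Slc44a2 like Lmf2, Dtnb and Mvb12b (0.90, 0.89 and 0.89). Slc44a4 was most like Spint1, Tmem45b and Ceacam1 (0.96, 0.96 and 0.95). Some of these relations were looser by rank or within GWI colons. Within GWI colons r was 0.52 for Slc44a1 and Tm4sf20 and 0.70 for Slc44a1 and Nat2. It was 0.77 for Bche and Mat2b and 0.78 for Slc44a4 and Tmem45b. By rank, rho was 0.75 for Bche and Tcf12 and 0.76 for Slc44a1 and Tm4sf20. For Slc18a3, Slc5a7 and Ache the lowest r within GWI colons was 0.93 (Ache and Pnma2). Elavl4 is itself one of the 12 neuron markers, and Etv1 one of the 8 interstitial cell and fibroblast markers.

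Chat, the enzyme that makes acetylcholine, was called higher in GWI colons. It had 85.8 CPM at the lowest, 153 CPM at the median and 185 CPM at the highest in control colons, and 147, 216 and 222 CPM in GWI colons. Of the 8 GWI colons, 6 were above every control. The log2 fold change was 0.40 ± 0.13 (SE; edgeR adjusted p = 0.0336; 0.00315 to 0.382 over the alternatives, in 12 of 29 of which it was no longer called). Whether the difference for Chat was larger than that for Slc18a3 was tested by their ratio, which did not pass (−0.47, exact permutation p = 0.413, adjusted 0.652). Chat is the third entry of a table that is otherwise in alphabetical order but for 1 break, after Il4 and Il6, and its single entry was used as it stands. Epithelial tuft cells also make acetylcholine with this enzyme. Of 9 tested tuft cell markers 0 were called by edgeR in either direction, beside 26.8% of all tested genes. For 2 of the 9 the unadjusted edgeR p was under 0.05, and the median log2 fold change was 0.18.

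Among 10 tested genes of choline use, 3 were called higher and 1 lower, with a median log2 fold change of 0.050. Over all tested genes 13.4% were called higher and 13.5% lower, and no list was tested against these shares. Pcyt1a, the rate-limiting enzyme of phosphatidylcholine synthesis, was 0.49 ± 0.089 higher (SE; edgeR adjusted p = 0.00152), Chdh, which oxidises choline towards betaine, 0.42 ± 0.11 higher (SE; adjusted p = 0.0119), and Pcyt1b, a second form of the former, had a log2 fold change of −0.72 ± 0.26 (SE; adjusted p = 0.0456). Of 8 other choline and organic cation transporters, 1 was higher and 2 lower (median −0.15). Slc22a5, the carnitine transporter, rose by 0.80 ± 0.12 (SE; edgeR adjusted p = 0.000648) with no overlap between groups, at 30.0 to 50.6 CPM in control and 53.4 to 81.4 CPM in GWI colons. The choline carriers Flvcr1 and Slc44a5 had log2 fold changes of −0.35 ± 0.12 and −0.69 ± 0.25 (SE; adjusted p = 0.0389 and 0.0493).

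The counts called in the next 3 lists stand beside the same shares of all tested genes, 13.4% higher and 13.5% lower. Of 12 tested genes with a cholinesterase-like fold, 1 was higher and 1 lower (median 0.31), and 12 more were too low to test. Ces2a, an intestinal carboxylesterase, was 1.90-fold higher (log2 fold change 0.93 ± 0.17 (SE), edgeR adjusted p = 0.00188), and Nlgn1, a neuroligin with an inactive esterase domain, had a log2 fold change of −0.85 ± 0.24 (SE; adjusted p = 0.0169). In the list of synaptic matrix and anchoring genes, 3 of 7 were higher and 0 lower (median 0.28). These were Dag1, dystroglycan (log2 fold change 0.74 ± 0.12 (SE), edgeR adjusted p = 0.000838, no overlap between groups), Agrn, agrin (0.44 ± 0.096 (SE), adjusted p = 0.00425), and its receptor Lrp4 (0.47 ± 0.15 (SE), adjusted p = 0.0308). Of 11 tested acetylcholine receptor genes 1 was lower and 0 higher (median −0.22), namely Chrnb1 with −0.59 ± 0.17 (SE; edgeR adjusted p = 0.0184).

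Promoters were matched in RefSeq (GRCm38.p6, 250 bases before to 50 after the start) for 8 of the 9 genes. Those of Slc44a4, the member called between groups, and of Slc18a3, Slc5a7 and Ache, which varied together among mice, are shown 5′ to 3′ on the strand of the gene. Capitals mark GGGCGG (the GC box, bound by Sp family factors) and TGACG (a half-site for CREB family factors), each read on both strands; neighbouring GC boxes can share bases. GGGCGG occurs in 35.7% and TGACG in 20.8% of the 32851 promoters of this length.
Slc44a4 (chr17:34914216-34914515, plus strand): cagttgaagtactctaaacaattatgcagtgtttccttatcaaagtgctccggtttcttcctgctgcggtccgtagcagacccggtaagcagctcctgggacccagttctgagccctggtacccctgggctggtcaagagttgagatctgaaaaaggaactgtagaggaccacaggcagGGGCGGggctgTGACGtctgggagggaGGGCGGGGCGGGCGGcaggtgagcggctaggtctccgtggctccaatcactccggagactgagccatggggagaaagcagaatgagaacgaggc
Slc18a3 (chr14:32464801-32465100, minus strand): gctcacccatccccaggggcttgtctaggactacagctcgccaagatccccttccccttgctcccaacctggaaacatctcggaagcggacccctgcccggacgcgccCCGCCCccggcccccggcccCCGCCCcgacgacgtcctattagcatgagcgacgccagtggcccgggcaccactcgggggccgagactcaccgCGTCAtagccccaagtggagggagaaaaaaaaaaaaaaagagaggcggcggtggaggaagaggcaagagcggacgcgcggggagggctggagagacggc
Slc5a7 (chr17:54298985-54299284, minus strand): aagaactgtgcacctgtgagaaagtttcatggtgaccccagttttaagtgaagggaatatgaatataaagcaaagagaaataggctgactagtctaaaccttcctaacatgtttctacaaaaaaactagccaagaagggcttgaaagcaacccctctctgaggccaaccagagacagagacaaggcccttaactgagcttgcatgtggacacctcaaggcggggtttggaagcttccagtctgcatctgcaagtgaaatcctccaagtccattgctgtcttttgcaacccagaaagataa
Ache (chr5:137288004-137288303, plus strand): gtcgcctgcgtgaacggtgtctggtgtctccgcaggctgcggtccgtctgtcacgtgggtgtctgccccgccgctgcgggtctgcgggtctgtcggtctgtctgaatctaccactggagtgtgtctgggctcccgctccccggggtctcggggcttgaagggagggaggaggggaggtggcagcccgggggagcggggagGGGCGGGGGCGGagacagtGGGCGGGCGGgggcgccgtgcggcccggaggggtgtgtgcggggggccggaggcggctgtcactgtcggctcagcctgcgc
The window of Slc44a4 held 4 GC boxes and 1 half-site, that of Slc18a3 2 and 1, and that of Ache 4 and 0. Slc5a7 had 0 of both, so neither set of letters was common to Slc18a3, Ache and Slc5a7. Colq, which varied with them, is the member without a matched promoter. A match describes the letters only and is not a binding site.

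The sharing of reads with neighbours was limited for the other members. On the opposite strand, 2.12% of the exon bases of Ache are shared with Gm42456 and 4.46% of those of Slc44a1 with 1700060J05Rik, where reads cannot be assigned without strand.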

How the data were processed

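RNA from 17 colons was sequenced as poly(A)-selected libraries. Per the labels and methods, the authors trimmed reads with Trimmomatic 0.36, aligned them to GRCm38 with STAR 2.5.2b and deposited raw counts of uniquely assigned reads per gene; the annotation release and the strand setting are not given in the sources used here. The members and the gene lists were chosen with earlier results of these data known. From the counts, edgeR 4.0.16 (R 4.3.3) filtered low counts, scaled libraries by TMM and fitted a robust quasi-likelihood model with 1 term for group over all 17 mice; genes with a Benjamini-Hochberg adjusted p under 0.05 over all tested genes were called. CPM values are TMM-scaled. Log2 CPM used a prior count of 2. Ratios and members relative to lists were tested by exact permutation, and correlations by permutation with 100000 resamples, each adjusted over its family. Gene positions and merged exon lengths came from GENCODE M21 on GRCm38, where each of the 174 symbols of members and lists matched 1 gene. Named from the other lists were genes called, at most 4 by smallest p, and Chat; some of these are given by counts alone, and the result of 1 marker list is not reported here. Total counts between 16293537 and 20741212 leave Colq and Prima1 with at most 65 counts in a library. The fit was tested on simulated data. Alternatives were DESeq2 1.42.0, limma-voom (limma 3.58.1) with sample weights, other scalings, filters, thresholds and prior counts, marker means as covariates, a replicate block and each mouse left out.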

Additional observations from a re-analysis of the deposited data

Results flagged for a closer look

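In 5 of 42 groups of values, the highest or lowest mouse lay far from the rest of its group relative to the range. Some groups do this by chance alone, and how often was not tested for these values. Of these, 3 concern Control replicate 9, which held 262 CPM of Bche (next 106 CPM), 490 CPM of Slc44a1 (next 331 CPM) and 85.8 CPM of Chat (nearest 140 CPM). In this library mt-Co1 took 12.5% of counts, against 3.50% in Control replicate 6. The part of library composition in the 3 values was not tested. The other 2 concern GWI replicate 5, with 34.7 CPM of Bche (nearest 65.6 CPM) and a log2 ratio of Ache to Bche of −0.18 (nearest −1.68). This mouse had the highest neuron and smooth muscle marker means of its group, at 4.91 and 9.67 log2 CPM; their part in the Bche value was not tested.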

How the results depend on the processing

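Slc44a4 was higher in GWI colons in each of 29 alternative fits (log2 fold change 0.30 to 0.71) and called in 28 of them, the exception being the model with the colon epithelium mean, an alternative chosen after seeing the data, where 0 members and 235 genes in all were called. Over the other settings, the members called were 2 with library size alone (Slc44a1 and Slc44a4), 3 with the smooth muscle mean (Bche, Colq and Slc44a4), 4 with the enteric neuron mean (Bche, Colq, Slc18a3 and Slc44a4) and 0 with the unadjusted p and the fold threshold. Of all 14146 tested genes, 3381 were called with library size alone, 5324 with the smooth muscle mean and 5548 with the enteric neuron mean. With limma-voom and sample weights, 6 members and 8091 genes were called: Slc44a1 and Slc44a4 higher, and Ache (−0.46, adjusted p = 0.0359), Prima1 (−0.80, 0.0441), Slc18a3 (−1.06, 0.0328) and Slc5a7 (−0.98, 0.0277) lower, with weights between 0.117 for Control replicate 9 and 3.33 for Control replicate 5. Leaving out 1 mouse at a time gave 1 to 2 members called, the 2 without Control replicate 9, and 2781 to 4818 genes in all. The log2 fold change then ran from −0.35 to −0.087 for Ache, −0.93 to −0.40 for Prima1, −0.80 to −0.29 for Slc18a3 and −0.68 to −0.29 for Slc5a7. Upper-quartile scaling called 1214 genes higher and 2992 lower, against 1889 and 1903 with TMM.

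Signs turned for Ache (0.26 with the smooth muscle and 0.041 with the neuron mean), Prima1 (0.63 with the smooth muscle mean), Slc18a3 (1.09 and 0.44), Slc5a7 (0.33 and 0.082), Slc44a2 (−0.024 with upper quartiles and −0.010 with limma-voom) and Colq (−0.035 with upper quartiles, −0.40 with limma-voom, −0.20 with the epithelium mean, and −0.20 to 0.24 with 1 mouse left out). With 1 mouse left out the log2 ratio differences ran from −0.020 to 0.48 for Ache to Bche, from 0.22 to 0.52 for Colq to Ache, from −0.31 to 0.016 for Prima1 to Ache, from −0.72 to −0.28 for Slc18a3 to Chat and from −0.29 to 0.046 for Slc5a7 to Slc18a3, and 0 of 5 ratios passed in each of the 18 alternatives. Colq against colon epithelium markers gave r = −0.074 without the 2 farthest mice. With upper quartiles the median log2 fold change over all tested genes was −0.15, beside −0.056 with TMM. The cause of these shifts was not tested. A prior count of 0.5 left 2 members relative to a list past the threshold.

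With the replicate number as a block, 2 members (Slc44a1 and Slc44a4) and 2218 genes were called. That fit also left out Control replicate 9, whose number has no GWI partner, and without this mouse and with no block the same 2 members and 4493 genes were called. Mice of the same number in both groups had correlations between −0.51 and 0.11, and none of the 8 numbers matched best with its own, so the replicate block rests on a number alone. Counts of at most 47 for Colq and 65 for Prima1 limit what these libraries can show for the anchors.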
